A study of Rattus norvegicus with 6 samples.

Results

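Camk2a, Gria2 and Prkce encode an enzyme, a receptor subunit and a second enzyme of signaling at excitatory synapses, and their RNA levels were followed here in the ventromedial hypothalamus (VMH) of rats exposed to predator odor (PO). They are 3 of 29039 features in the deposited count table and 3 of the 16685 with enough counts to be tested. All 3 were selected on the values of the comparison described below, since the study's deposited tables list them as called between these same libraries. Those tables also list genes that differ by less than 1.5-fold, Camk2a and Gria2 among them in the fit used here. Their differences between the odors are therefore given as a description, with no test. The study compared 3 rats exposed to PO, a fragment of towel that had served as ferret bedding, with 3 rats exposed to control odor, a clean towel fragment. The odor was placed in the home cage for 20 min, after 2 weeks in which all rats were habituated to handling and to control odor. All 6 were male Sprague Dawley rats with a labelled age of 10 months. RNA came from bilateral VMH micropunches, with 1 library per rat, and the PO libraries are named P8, P13 and P14 and the control odor libraries C2, C3 and C4. A micropunch holds neurons, glia, vessels and whatever tissue borders the nucleus, and only 1 brain region, 1 odor source and 1 time were sampled.

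At an excitatory synapse, glutamate opens AMPA and NMDA receptors on the postsynaptic membrane. Calcium that enters through NMDA receptors binds calmodulin, which activates the kinase CaMKII and the phosphatase calcineurin. CaMKII phosphorylates AMPA receptors and their partners and is needed for long-term potentiation, while calcineurin acts in the opposite direction on many of the same synapses. Metabotropic glutamate receptors of group I raise diacylglycerol, which activates kinases of the protein kinase C family. In the VMH, a nucleus known for defensive and metabolic control, glutamatergic neurons predominate.

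The PO libraries held 17479862 to 20316213 counts and the control odor libraries 15835375 to 18370871. Levels are given as CPM, each gene's counts relative to the library total after scaling with TMM factors, which lay between 0.957 and 0.992 in PO and between 1.01 and 1.03 in control odor libraries. In edgeR's quasi-likelihood test over all 16685 features, 35 were lower and 24 higher after PO exposure at an adjusted p of 0.05. The balance of directions depended on the setting. Scaled by library size alone, edgeR called 87 lower and 16 higher, and with upper quartile factors 35 lower and 10 higher. With the size factors of DESeq2, edgeR called 33 lower and 27 higher, and without a filter on low counts 186 lower and 247 higher of 22185. It called 70 lower and 65 higher of 17006 without P8, and 79 lower and 187 higher of 16989 without P13. DESeq2 itself called 285 lower and 580 higher of the 13707 features with an adjusted p. Only 175 of the 29039 features are paired with a gene name in the sources used here, all of them in tables of genes that the study had called. None of the 8 VMH neuron markers and none of the 10 pan-neuronal markers listed for a check of the tissue has a name, so the labelled tissue could not be checked. In a bulk library, fewer cells of a type and less RNA per cell cannot be told apart.

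Camk2a encodes the alpha subunit of CaMKII, the kinase that is most abundant in the postsynaptic density of forebrain neurons. Its level was 93.6, 103 and 79.9 CPM in P8, P13 and P14, against 119.9, 121.4 and 122.3 CPM in C2, C3 and C4. The PO libraries all lay below the control odor libraries, and P14 was the lowest. The mean was 92.2 ± 11.6 CPM after PO and 121 ± 1.21 CPM after control odor (SD, n = 3 each), so that PO libraries averaged 76.1% of the control odor level. The log2 fold change was -0.39 with a standard error of 0.08, a 1.31-fold lower level after PO. The raw counts were 1872, 1868 and 1337 in the PO libraries and 2118, 1982 and 2270 in the control odor libraries. At such counts, counting alone gives a coefficient of variation (CV) of 2.1% to 2.74% per library. The control odor libraries varied by 1.0%, less than that, and the PO libraries by 12.6%.

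Gria2 encodes GluA2, the AMPA receptor subunit whose presence keeps the channel nearly impermeable to calcium. It stood at 150.7, 126.5 and 143.2 CPM in P8, P13 and P14, against 173.5, 169.5 and 182.2 CPM in C2, C3 and C4. The groups again did not overlap, but here the lowest library was P13, which held the highest level of Camk2a among the PO libraries. The means were 140.1 ± 12.4 CPM after PO and 175 ± 6.5 CPM after control odor (SD, n = 3 each). The log2 fold change was -0.32 with a standard error of 0.07, a 1.25-fold lower level after PO. The closest libraries of the 2 groups, P8 and C3, were 0.17 apart on the log2 scale, the narrowest gap of the 3 genes. The raw counts were 3014, 2294 and 2395 after PO and 3066, 2768 and 3383 after control odor, so that P8 and C2 held nearly the same number of reads and differ in level through library size.

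Prkce encodes protein kinase C epsilon, a member of the family that responds to diacylglycerol but does not need calcium. Its level was 9.35, 9.48 and 7.05 CPM in P8, P13 and P14, against 18.2, 16.3 and 12.2 CPM in C2, C3 and C4. All PO libraries lay below all control odor libraries, with C4 nearest to the PO group and P14 lowest of all. The means were 8.63 ± 1.36 CPM after PO and 15.6 ± 3.04 CPM after control odor (SD, n = 3 each), so that PO libraries averaged 55.5% of the control odor level. The log2 fold change was -0.85 with a standard error of 0.17, a 1.8-fold lower level after PO and the only one of the 3 past the 1.5-fold threshold that the study applied. Prkce also rests on the fewest reads, 187, 172 and 118 after PO and 321, 266 and 227 after control odor. Counting alone gives a CV of 7.31% to 9.21% in a PO library and 5.58% to 6.64% in a control odor library, against measured CVs of 15.8% and 19.5%.

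**Figure D1:**
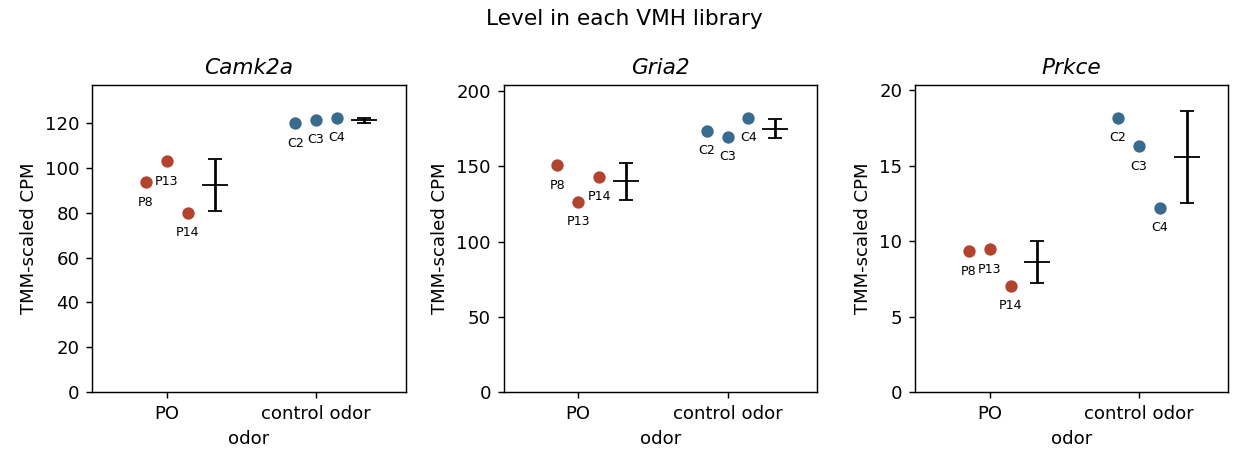
TMM-scaled CPM (y axis, from 0) of Camk2a, Gria2 and Prkce in each VMH library, PO on the left and control odor on the right; points are libraries (1 rat each), and the bar beside them is the mean with its SD (n = 3). No PO point reaches the control odor points, and the control odor libraries lie between 119.9 and 122.3 CPM for Camk2a but between 12.2 and 18.2 CPM for Prkce.

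Short stretches before the gene starts were searched for letters that CREB, AP-1 and EGR factors, which respond to neuronal activity, can bind. The GC box was searched beside them and is not the motif of any of these factors. RefSeq's table for GRCr8 held 250 bases before the start for 2 of the 3 genes, Camk2a and Prkce. Searched on both strands were the half-site of the cAMP response element (TGACG), the full element TGACGTCA, which contains the half-site, the AP-1 motif TGANTCA, the EGR motif by its letters GCGNGGGCG, and the GC box GGGCGG. Camk2a held 2 half-sites and none of the other 4 motifs. At least 1 half-site was found in 18.2% of all 33469 windows of this length, and the share with 2 was not counted. Prkce held 1 GC box, found in 30.5% of windows, and none of the other 4. The full element was in 1.59%, AP-1 in 6.34% and EGR in 4.29% of windows. G and C made up 60.4% of the Camk2a window and 68.8% of the Prkce window, against a median of 51.2%. The capitals mark the matched letters, read 5′ to 3′ on the strand of the gene.
Camk2a half-site (chr18:56649017-56649046, + strand, GRCr8): gggacctggatgcTGACGaaggctcgcgag
Camk2a half-site on the opposite strand (chr18:56649075-56649104, + strand, GRCr8): gaagccccaagctCGTCAatcaagctggtt
Prkce GC box on the opposite strand (chr6:14204509-14204538, - strand, GRCr8): gtcccgCCGCCCcctccccctccgggagtc
The first Camk2a match starts 150 bases before the RefSeq start and the second 92 bases before it, and the Prkce match starts 244 bases before it. Longer RefSeq models of both genes reach past these windows, so the stretches may lie inside a transcript. The matches describe letters only. The genes were counted on another build, Rnor_5.0, and no binding was measured. In these libraries Camk2a and Prkce were both lower after PO, at the levels given above, and a link to these letters was not tested.

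All 3 genes had PO libraries that did not overlap the control odor libraries and lay below them, as did 13.2% of all features tested. In edgeR's test 0 of the 3 were called lower at an adjusted p of 0.05, where 0.210% of all tested features were. In DESeq2, the tool the study had used, 3 of 3 were called lower, where 2.08% of the features with an adjusted p were. These libraries chose the genes, so nothing is read from the counts. The DESeq2 count changed with the libraries used: it was 0 of 3 without C2 and 2 of 3 without C3, where Prkce did not pass. Without C4, Camk2a and Gria2 passed and Prkce was given no adjusted p, and without any one of the PO libraries 3 of 3 passed. Calls over all features changed as well. DESeq2 called 285 lower with all libraries, and 84 without C2, 95 without C3 and 130 without C4. It called 270 lower without P8, 218 without P13 and 116 without P14. In edgeR, 2 of the 3, Camk2a and Prkce, passed without P13, where 79 of all features were called lower.

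Per unit of gene length, the order was Camk2a, Gria2, Prkce in every library. The deposited FPKM values, which divide counts by length and by library total, gave Camk2a 63.2, 70.1 and 52.5 FPKM in P8, P13 and P14, against 84.4, 85.8 and 84.8 FPKM in C2, C3 and C4. Gria2 had 22.2, 18.8 and 20.5 FPKM in the PO libraries, against 26.7, 26.2 and 27.6 FPKM in the control odor libraries. Prkce had 3.68, 3.77 and 2.7 FPKM in the PO libraries, against 7.46, 6.72 and 4.95 FPKM in the control odor libraries. No library of one gene reached the range of the next. By mean FPKM over the 6 libraries, Camk2a lay above 90.9% of tested features, Gria2 above 75.4% and Prkce above 43.2%. Gria2 had more counts than Camk2a in all libraries but a lower level per length, because the lengths implied by counts and FPKM are 6680 bases for Gria2, 1458 for Camk2a and 2499 for Prkce.

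The 3 genes did not deviate together from rat to rat. Within the PO group, P14 was lowest for Camk2a and Prkce, with deviations of -0.2 and -0.28 from the PO mean on the log2 scale, but 0.04 above it for Gria2. P13 was 0.17 above the PO mean for Camk2a and 0.15 above it for Prkce, and lowest for Gria2 (a deviation of -0.14). Within the control odor group, C4 held the highest level of Camk2a and of Gria2, and the lowest of Prkce (a deviation of -0.33). The Camk2a levels of that group varied by 1.0%, less than counting alone gives. Over the 6 libraries, the deviations from the group means correlated with r = 0.54 between Camk2a and Prkce, -0.52 between Camk2a and Gria2 and -0.4 between Gria2 and Prkce. These values describe 6 points that share their libraries and scaling, and are given without a test.

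**Figure D2:**
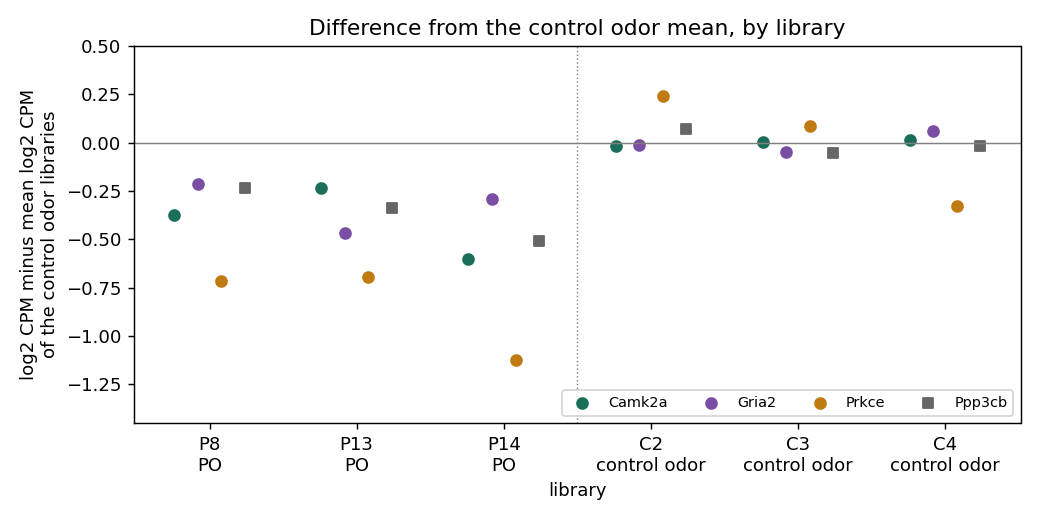
Log2 CPM of each gene minus its own mean log2 CPM in the control odor libraries (y axis) for each library (x axis), PO libraries on the left and control odor libraries on the right; circles are Camk2a, Gria2 and Prkce and squares Ppp3cb. All PO values are below 0, P14 is lowest for Camk2a (-0.6), Prkce (-1.12) and Ppp3cb (-0.51), and P13 is lowest for Gria2 (-0.47).

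Ratios between the genes inside a library do not depend on how libraries are scaled. Per 100 counts of Gria2 there were 62.1, 81.4 and 55.8 counts of Camk2a in P8, P13 and P14, against 69.1, 71.6 and 67.1 in C2, C3 and C4. The control odor values lie inside the PO range, and the ratio spread more widely after PO (66.5 ± 13.3) than after control odor (69.3 ± 2.26; SD, n = 3 each). Prkce gave 9.99, 9.21 and 8.83 counts per 100 of Camk2a in the PO libraries, against 15.2, 13.4 and 10.0 in the control odor libraries. The groups did not overlap, but P8 and C4 were nearly equal. Per 100 counts of Gria2, Prkce gave 6.2, 7.5 and 4.93 counts in the PO libraries, against 10.5, 9.61 and 6.71 in the control odor libraries, where P13 lay above C4. The difference in log2 ratio between the groups was -0.44 for Prkce to Camk2a, -0.52 for Prkce to Gria2 and -0.08 for Camk2a to Gria2.

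The spread between rats of a group lay above the median for features of like abundance in all 3 genes. The within-group CV, averaged over both groups as the root of the mean square, was 8.92% for Camk2a, 6.79% for Gria2 and 17.8% for Prkce. The median was 4.87% over the 1122 tested features with 100 to 200 CPM, the range of Camk2a and Gria2, and 10.7% over the 2315 with 10 to 20 CPM, the range of Prkce. Over all tested features, regardless of level, 40.1% had a smaller within-group CV than Camk2a, 27.8% than Gria2 and 68.0% than Prkce.

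**Figure D3:**
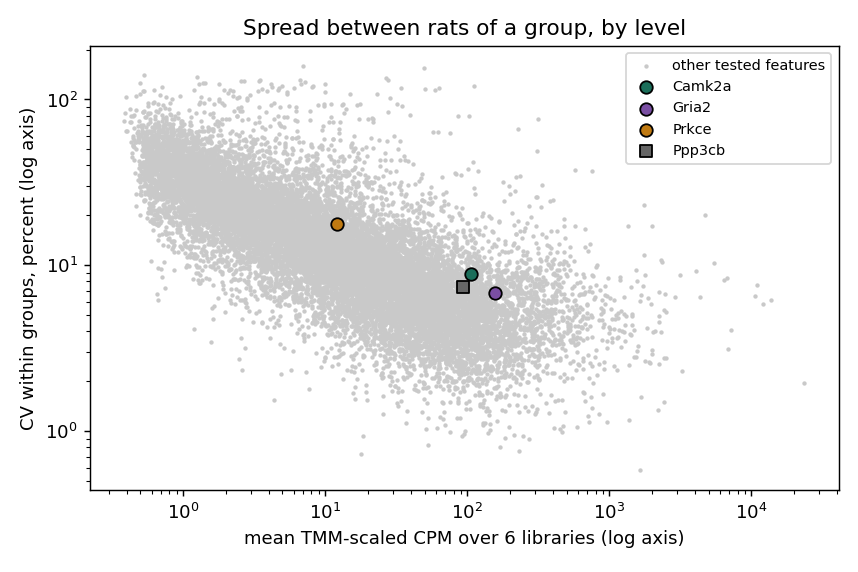
CV of CPM within groups (y axis, percent, log scale) against mean CPM over the 6 libraries (x axis, log scale) for every tested feature (grey) with Camk2a, Gria2, Prkce (circles) and Ppp3cb (square) marked. The 3 genes lie above the middle of the cloud at their level, at 8.92%, 6.79% and 17.8%, and Ppp3cb at 7.38%.

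The size of the differences changed little with processing, and the direction was lower after PO in each of the 17 alternatives run for each gene. This direction is no separate support, since the genes were chosen in these libraries and the alternatives use the same counts. The groups did not overlap, so leaving out a library could hardly reverse it. The log2 fold change lay between -0.47 and -0.3 for Camk2a, between -0.39 and -0.24 for Gria2 and between -1 and -0.72 for Prkce. The values for Prkce nearest to 0 came without C2 (-0.72) and without P14 (-0.72), and those for Camk2a without P14 (-0.3) and for Gria2 without P13 (-0.24). P14 and P13 are the lowest PO libraries of those genes. Scaling by library size alone gave -0.46 for Camk2a, -0.39 for Gria2 and -0.91 for Prkce, and moved the median of all tested features to -0.08, against -0.01 with TMM factors.

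**Figure D4:**
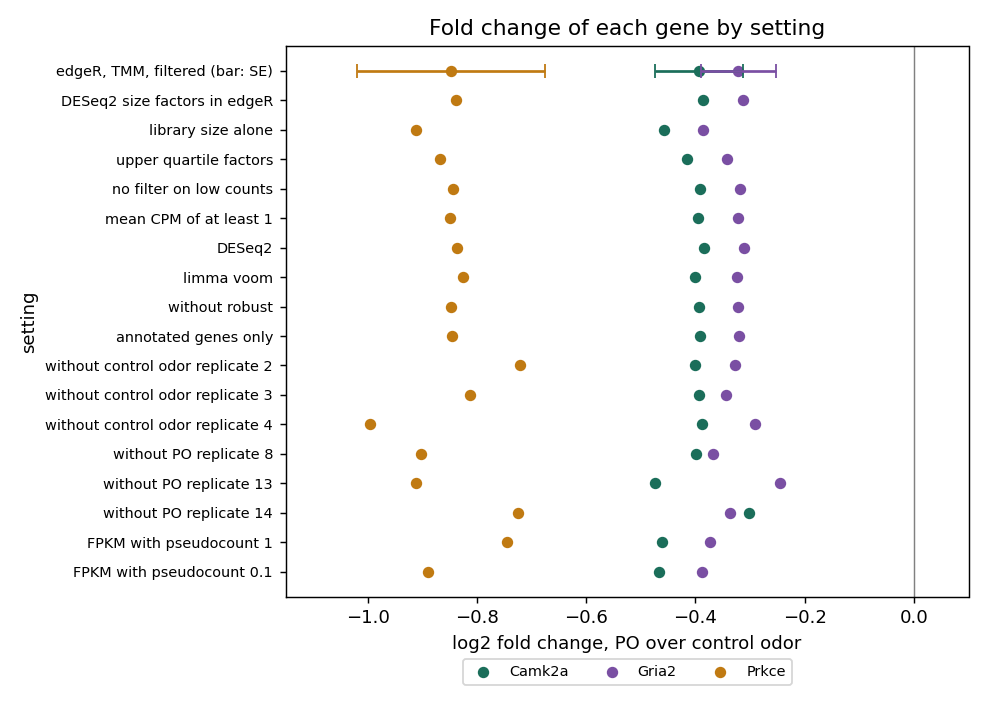
Log2 fold change of Camk2a, Gria2 and Prkce, PO over control odor (x axis), under each processing setting (y axis); points are fitted values, and the bars in the top row are standard errors. All points are left of 0, Prkce between -1 and -0.72, and Camk2a and Gria2 change places only without P14.

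Of 105 genes in 9 lists of postsynaptic signaling (CaM kinases, AMPA, NMDA, kainate and metabotropic receptors, protein kinase C, scaffolds, phosphatases), 4 have a name here: the 3 genes above and Ppp3cb. The other subunits of CaMKII and of AMPA receptors and the other protein kinase C genes have none and are given no value. Ppp3cb encodes the beta catalytic subunit of calcineurin, the phosphatase that shares its activator, calmodulin, with CaMKII. It stood at 88.7, 82.6 and 73.4 CPM in P8, P13 and P14, against 109.6, 100.5 and 103.1 CPM in C2, C3 and C4. The PO libraries all lay below the control odor libraries, P14 lowest. The means were 81.6 ± 7.69 CPM after PO and 104.4 ± 4.67 CPM after control odor (SD, n = 3 each), and the log2 fold change was -0.36, with 0.07 as its standard error. It did not pass edgeR's test (adjusted p = 0.0627) and passed DESeq2 (adjusted p = 0.00485), and over all alternatives its adjusted p lay between 0.00485 and 0.216. Without P8 it passed edgeR too (adjusted p = 0.0357). Ppp3cb has a name only because the study called it in these libraries, so it is not independent of the choice that picked the 3 genes. Inside a library, there were 94.8, 80.2 and 91.9 counts of Ppp3cb per 100 of Camk2a in P8, P13 and P14, against 91.4, 82.8 and 84.4 in C2, C3 and C4, ranges that overlap.

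The annotation deposited with the series ties the genes together unevenly. Of its 28 KEGG pathways, 4 list both Camk2a and Gria2 (long-term potentiation, dopaminergic synapse, circadian entrainment and amphetamine addiction), and 3 of these also list Ppp3cb. Prkce is in 1 pathway, AGE-RAGE signaling in diabetic complications, with neither of the others. Of 1132 GO terms, 137 list Camk2a and 12 list Prkce, of which 10 are shared broad terms such as protein modification, while no term lists Gria2. The terms modulation of synaptic transmission, dendritic spine and calmodulin binding list Camk2a. The genes listed beside it were chosen for description after their values were seen, and all had been called by the study in these libraries. Of the 8 other genes under modulation of synaptic transmission, 6 had lower and 2 higher fitted levels after PO, and all 8 passed DESeq2 (over all features with an adjusted p, 2.08% were called lower and 4.23% higher). In edgeR's test, where 0.210% of all tested features were called lower and 0.144% higher, 1 of these fell, Prepl, which encodes a peptidase-like serine hydrolase. Prepl had 93.8 ± 2.57 CPM after PO and 124.5 ± 10.4 CPM after control odor (SD, n = 3 each, adjusted p = 0.0416 from edgeR). The other 2 that passed were higher, Arc and Pebp1. Pebp1 encodes a binding protein that inhibits Raf kinase. Arc, a cytoskeletal protein that takes part in the removal of AMPA receptors from the membrane, had 16.9 ± 0.253 CPM after PO and 8.41 ± 1.94 CPM after control odor (SD, n = 3 each; adjusted p = 0.0396 from edgeR). Of the 4 genes listed beside Camk2a under dendritic spine, Arc and Mt3, a brain metallothionein, rose in edgeR's test, and Fbxo2 (log2 fold change 0.3) and Syt11 (log2 fold change -0.33) did not pass it, while all 4 passed DESeq2. Under calmodulin binding, Ngfr, the low-affinity neurotrophin receptor (log2 fold change -1.17), fell in edgeR's test, and Nos1 (log2 fold change -0.56) did not pass it, while both passed DESeq2. The genes listed beside Camk2a and Gria2 under circadian entrainment, Gnb1 and Nos1, and under dopaminergic synapse, Gnb1 and Ppp3cb, also had lower fitted levels, and none of them passed edgeR while all passed DESeq2. Under amphetamine addiction, Arc and Fosb had higher and Ppp3cb lower fitted levels, and of these Arc passed edgeR and all 3 passed DESeq2. These edgeR calls did not hold with every library left out. Prepl was lost without C2, C3 or P14 (adjusted p up to 0.165) and Arc without C2, C4 or P14 (up to 0.131). Ngfr was lost without the same libraries as Arc (up to 0.104), and Pebp1 and Mt3 without C2, C3, C4 or P14 (up to 0.193 and 0.196). Over all features, edgeR's calls fell from 59 to 9 without C2, C4 or P14 and to 15 without C3.

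Among the named features with a mean of at least 1 CPM, those with levels most like each gene over the 6 libraries were different for each. All candidates had been called between the odors, so likeness over the libraries largely follows the groups. For Camk2a, of 166 candidates, Sun1, a nuclear envelope protein, came first (r = 0.99), followed by Mmp14, AABR07005588.1 and the neuronal nitric oxide synthase gene Nos1 (r = 0.99, 0.99 and 0.98). The same 4 features led by deviations from the group means (r between 0.93 and 0.97). For Gria2 the first 4 were Synpo2, Fmod, Ngfr and Nfatc4 (r between 0.97 and 0.98), and by deviations Nfatc4, a transcription factor activated by calcineurin, came first (r = 0.92), followed by Cpz, Synpo2 and Fmod. For Prkce they were Myef2, Tub, Tril and Tmem161b (r between 0.98 and 1), and by deviations Myef2, the gene of the neuropeptide cholecystokinin Cck, Tub and Tril (r between 0.96 and 0.99). Among the 166, Prkce ranked 38 and Gria2 ranked 86 by likeness to Camk2a over the 6 libraries. These are the extremes of many correlations over 6 points, and were not tested.

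A few markers of other cell types have a name here, in each case because the study had called them in these libraries, so that their differences between the odors were fixed by that choice and do not describe the lists as wholes. Of 9 leptomeningeal markers, genes of the inner meninges, 6 have a name (Col1a1, Col1a2, Igfbp2, Slc22a6, Slc6a13 and Gjb2). All 6 had lower means after PO, and Slc22a6 and Slc6a13 passed edgeR's test. Their summed level was 65.1, 38.4 and 30.4 CPM in P8, P13 and P14, against 149.2, 115.7 and 177.1 CPM in C2, C3 and C4. C4 had the largest sum, and of its group the highest Camk2a level (122.3 CPM), the highest Gria2 level (182.2 CPM) and the lowest Prkce level (12.2 CPM). For Camk2a this rank cannot be told from counting noise, since the control odor libraries varied by 1.0%, less than counting alone gives. Olig2, the only named gene of 9 oligodendrocyte markers, was at 68.8 to 71.6 CPM after PO and 43.3 to 50.8 CPM after control odor, and rose in edgeR's test. Folr1, the only named gene of 4 choroid plexus markers, was at 8.1 to 17.1 CPM after PO and 3.77 to 5.15 CPM after control odor, and did not pass edgeR's test. Of these calls, that of Olig2 was lost without C2 or C4 (adjusted p up to 0.0621 from edgeR). That of Slc22a6 was lost without any library but P8 (up to 0.127) and that of Slc6a13 without any library but C2 (up to 0.134). Over all features, edgeR called 59, and 9 without C2, C4 or P14, 15 without C3, 135 without P8 and 266 without P13. None of these named markers was at 0 in any library. The share of reads that spanned a splice junction was 25.1%, 25.8% and 24.8% in P8, P13 and P14, against 25.8%, 25.8% and 25.7% in C2, C3 and C4. The part of cell makeup and of RNA quality in the levels of Camk2a, Gria2 and Prkce was not tested, and for neurons, astrocytes, microglia and endothelial cells no marker has a name. Of 10 immediate early genes, which neurons switch on with activity, the 5 that have a name summed to 117.7 to 141.6 CPM after PO and 60.4 to 92.8 CPM after control odor. They too have a name only because the study had called them in these libraries, so this difference was fixed by that choice. Of the 5, only Arc passed edgeR's test.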

How the data were processed

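RNA of the VMH from 3 rats exposed to PO and 3 exposed to control odor was analysed, grouped by the submitters' labels. The deposited counts are whole reads per gene with no normalization. Per the study's methods, the reads were aligned by HISAT2 2.1.0-beta, the genome was Ensembl's Rnor_5.0 (version 79), and HTSeq 0.6.1 assigned reads to genes in its union mode. The submitters' processing notes add CASAVA 1.8. The authors computed the deposited FPKM from those counts. No source used here says whether strand entered the counting, so reads from overlapping genes on the other strand cannot be told apart. RefSeq lists 3 small or noncoding genes overlapping Gria2, 3 overlapping Prkce and 0 overlapping Camk2a. The authors' own result tables (genes called, GO and KEGG) also hold the authors' fold changes and p-values, which were not used. Gene names and term membership come from these tables.

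The main fit over all features used edgeR 4.0.16 under R 4.3.3 (TMM, filterByExpr, robust quasi-likelihood, Benjamini-Hochberg adjustment), and standard errors are the log2 fold change divided by the root of F. DESeq2 1.42.0, limma 3.58.1 (voom), other scalings and filters, and each replicate left out were the alternatives. DESeq2 without each replicate, and the ratios inside a library, were added after seeing the data. The scripts were tested on simulated data. Nothing in the sources used here gives pairing or batches. The p-values set the group difference against the spread between these 6 rats, which the tools estimate with information shared over all features.

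The members and lists were chosen with earlier results of these data known. Beside the 3 genes, named genes are those of the fixed postsynaptic lists that have a name, the 4 features most like each gene by each measure of likeness, and the named markers. Exact permutation tests planned for marker sums were not run, since under 80% of each list has a name. Prepl, Arc, Pebp1, Mt3, Fbxo2, Syt11, Gnb1 and Fosb were added after their values were seen. Some genes listed under the terms described are not reported here.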

Additional observations from a re-analysis of the deposited data

How the results depend on the processing

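The log2 fold changes of Camk2a, Gria2 and Prkce moved by less than the spread between replicates in each of 17 alternatives, and that of Ppp3cb in each of 15. With each replicate left out in turn, the values ran between -0.47 and -0.3 for Camk2a, -0.37 and -0.24 for Gria2, -1 and -0.72 for Prkce and -0.41 and -0.29 for Ppp3cb. The number of genes called by edgeR, 59 of 16685, was 103 with library size alone and 2 without the robust option, and voom called 3 of the same features. Other settings tested other numbers of features. Without a filter 433 of 22185 were called, and with a mean of at least 1 CPM 24 of 15423. DESeq2 called 865 of the 13707 with an adjusted p. With a replicate left out, edgeR called between 9 (without C2, C4 or P14) and 266 (without P13), of 16948 to 17066 tested. The cause was not tested. Of the postsynaptic lists beyond the 3 genes, 0 genes were called by edgeR and 1, Ppp3cb, with library size alone, without a filter, with DESeq2 and without P8 (0 to 1 over the replicates left out). Of the 3 genes, 0 passed edgeR, and 1 (Gria2) did so with library size alone, 3 without a filter and 2 without P13. DESeq2 called 3, and between 0 (without C2) and 3 with a replicate left out. Its calls over all features fell from 865 to between 212 (without C2) and 747 (without P8). No paired analysis was possible because the groups share no replicate number. Counting alone gives Prkce, the gene with the fewest reads of the 3, a CV of 5.58% to 9.21% per library, which is under its measured CVs of 15.8% and 19.5%.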
